A study of Mus musculus with 23 samples.

Results

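The genes described here are 10 members of the acetylcholine receptor and denervation program of skeletal muscle, chosen by symbol: the muscle receptor subunits Chrna1 (alpha), Chrnb1 (beta), Chrnd (delta), Chrne (epsilon) and Chrng (gamma), together with Musk, Ncam1, Runx1, Gadd45a and Hdac4. Of these, 9 were among the 12831 genes of the quadriceps table and 7 among the 16962 genes of the epididymal fat table. Chrng was not analysed here in either tissue, and Chrna1 and Chrnd were analysed in quadriceps alone.

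Quadriceps RNA was sequenced for 3 mice without tumor (no tumor), 4 with KPC tumors and 4 with KPC IL6KO tumors. Epididymal fat RNA was sequenced for 4 other mice per group, and each mouse gave 1 library. All were male C57BL/6J mice, 8 weeks old by their labels. No tumor mice had sham surgery, and the others received tumor cells by injection into the pancreas. The cells came from a pancreatic tumor of a genetically engineered male mouse on the C57BL/6 background, in which Pdx1-Cre acts in the pancreatic lineage. The KPC line was 1 clone that had taken up the CRISPR plasmid without a guide against a gene, and KPC IL6KO was 1 clone in which Il6, encoding the cytokine interleukin-6, had been edited. Effects of the edit and of other differences between the clones therefore cannot be told apart. The hosts were not edited and kept their own Il6. All groups were collected when the KPC mice showed overt wasting, so the muscle values are from 1 time point. By the paper's account KPC tumors were then larger than KPC IL6KO tumors, and effects of tumor size cannot be told apart either. The comparison asks how the receptor program of muscle differs with and without interleukin-6 from the tumor cells. The paper reports no loss of muscle weight with KPC IL6KO tumors, so wasting muscle is also compared with spared muscle.

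The muscle acetylcholine receptor is a ring of subunits that opens to a cation current when the motor nerve releases acetylcholine. Adult endplates use the epsilon subunit, fetal and denervated fibres the gamma subunit. In an innervated fibre, electrical activity holds the receptor genes down outside the nuclei under the nerve ending. When the nerve is cut, myogenin and other E-box-binding factors raise the genes for the alpha, beta, delta and gamma subunits, MuSK and NCAM along the whole fibre, downstream of the histone deacetylase HDAC4, while Gadd45a and Runx1 are induced as well.

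RefSeq promoters, 250 bases before to 50 bases after a gene start (GRCm38.p6), were available for 8 of the 10 members, with none for Chrnd and Ncam1 and a pair of windows for Runx1. Chrna1, Chrne and Musk are printed 5′ to 3′ because they carry the elements by which receptor genes are classically described. Capitals mark E-boxes, the letters CANNTG, which read the same on both strands and are the type of element bound by myogenin, and the N-box CCGGAA, searched on both strands, the type bound by the synapse-linked GABP factor. The windows lie at chr2:73580289-73580588 on the minus strand (Chrna1), chr11:70619145-70619444 on the minus strand (Chrne) and chr4:58285712-58286011 on the plus strand (Musk).
Chrna1: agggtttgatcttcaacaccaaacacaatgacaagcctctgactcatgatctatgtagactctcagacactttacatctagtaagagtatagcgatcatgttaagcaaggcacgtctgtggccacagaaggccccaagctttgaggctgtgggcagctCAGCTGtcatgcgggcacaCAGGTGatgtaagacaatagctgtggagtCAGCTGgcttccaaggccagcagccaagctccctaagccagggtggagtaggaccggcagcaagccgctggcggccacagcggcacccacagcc
Chrne: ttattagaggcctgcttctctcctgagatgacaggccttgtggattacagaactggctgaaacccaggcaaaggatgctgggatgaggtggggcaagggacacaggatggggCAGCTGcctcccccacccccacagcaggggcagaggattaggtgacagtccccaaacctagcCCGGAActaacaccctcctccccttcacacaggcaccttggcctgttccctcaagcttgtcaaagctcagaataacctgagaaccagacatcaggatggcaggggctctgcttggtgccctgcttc
Musk: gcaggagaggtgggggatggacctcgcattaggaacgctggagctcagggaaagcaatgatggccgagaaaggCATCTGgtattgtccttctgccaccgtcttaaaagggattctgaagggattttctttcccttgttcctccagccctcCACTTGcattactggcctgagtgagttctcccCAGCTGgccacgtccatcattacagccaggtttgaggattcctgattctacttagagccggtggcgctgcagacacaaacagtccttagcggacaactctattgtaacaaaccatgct

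Chrna1 held 3 E-boxes, 2 of them with the letters CAGCTG, at 92 and 44 bases before the start. Musk held 3 E-boxes with 1 CAGCTG, at 68 bases before the start. Chrne held 1 E-box, a CAGCTG 138 bases before the start, and 1 N-box 76 bases before it. Among the other members, Chrnb1 had 3 E-boxes and no CAGCTG, Chrng 3 with 2 CAGCTG, Gadd45a 1 E-box and 1 N-box, and Hdac4 none of these. Runx1 had 3 E-boxes and no CAGCTG in its window starting at 92826025, and 1 N-box in that starting at 92697280. These letters are common: of 32851 promoters of the same length, 72.3% held at least 1 E-box, 17.6% held 3 or more, 16.3% held CAGCTG, 1.9% held 2 or more CAGCTG, and 14.9% held the N-box. Presence of a motif is a description of the window and not of binding.

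In quadriceps of KPC mice, the denervation genes Musk, Runx1, Gadd45a and Hdac4 rose and the receptor subunit genes went separate ways. The beta subunit gene Chrnb1 rose 2.51-fold, the adult epsilon subunit gene Chrne fell to 0.323 of the no tumor level, and Chrna1, Chrnd and Ncam1 did not pass the test. In mice with KPC IL6KO tumors none of the 9 genes passed the test versus no tumor, where 0% of all 12831 genes did. A gene was called when its FDR was 0.05 or less and its FC 1.5 or more in either direction, from edgeR's quasi-likelihood test on the counts with Benjamini-Hochberg adjustment over all genes of the tissue. Versus no tumor, 5 of 9 members were called higher in KPC muscle, where 26.7% of all 12831 genes were, and 1 of 9 was called lower, where 29% of all genes were. Calls were widespread among all genes, so the counts alone say little of these members and each gene is described by its values. The median log2 FC was 1.33 over the 9 members and -0.03 over all genes. P-values set a group difference against the spread between these mice and, with 1 clone per line, do not cover the spread between clones. RNA from whole muscle cannot tell fewer cells of a type from less RNA per cell.

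**Figure D1:**
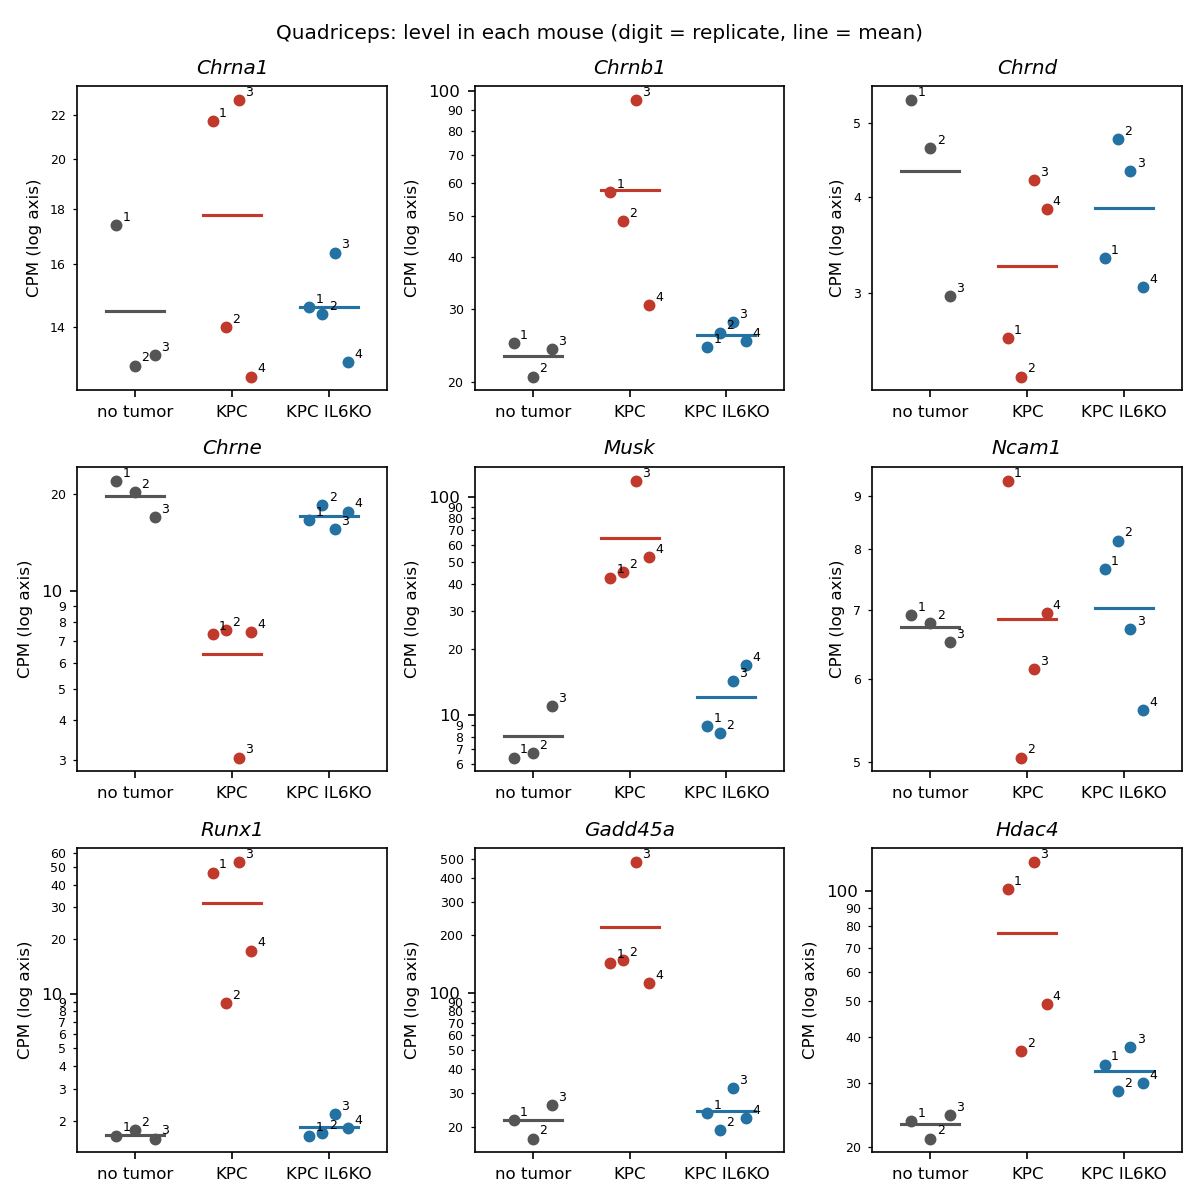
Level of each of the 9 genes in each quadriceps library, in CPM on a log axis, by group. Digits are replicate numbers and lines are group means. Musk, Runx1, Gadd45a, Chrnb1 and Hdac4 lay higher in all 4 KPC mice than in all 3 no tumor mice, and Chrne lower.

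Levels are given as CPM, counts scaled by TMM to a common library size, and levels of different genes are compared only as CPM per kb of annotated exon. The length is the union over all annotated transcripts of a gene, 4386 bases for Chrna1 and 1690 for Chrne. Which of these bases the muscle uses was not measured, so the order between genes depends on this scale. In no tumor quadriceps the subunit genes stood in the order Chrne (11.6 ± 1.51 CPM per kb, SD, n = 3), Chrnb1 (9.13 ± 0.888), Chrna1 (3.31 ± 0.571) and Chrnd (1.32 ± 0.374). Chrne and Chrnb1, neighbours in that order, differed by about the sum of their SDs. In KPC muscle Chrnb1 stood first at 22.9 ± 10.7 CPM per kb (n = 4), Chrna1 had 4.05 ± 1.19, Chrne had 3.77 ± 1.31 and Chrnd had 0.989 ± 0.279. Chrne thus went from the top of the order to a level that overlapped that of Chrna1. In KPC IL6KO muscle the values were 10.2 ± 0.625 for Chrnb1, 10.1 ± 0.728 for Chrne, 3.33 ± 0.319 for Chrna1 and 1.18 ± 0.247 for Chrnd, so that Chrnb1 and Chrne did not differ beyond their spread.

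Chrne, on chromosome 11 at 70614883 to 70619216 (minus strand, GRCm38), encodes the subunit that marks the adult receptor. Its level was 21.9, 20.2 and 16.9 CPM in the 3 no tumor mice, 7.38, 7.57, 3.06 and 7.47 CPM in the 4 KPC mice, and 16.6, 18.4, 15.5 and 17.6 CPM in the 4 KPC IL6KO mice. Every KPC library was below every other library, and the other groups overlapped. Chrne fell by 1.63 on the log2 scale in KPC versus no tumor (SE 0.25, FDR = 0.000162) and by 1.42 in KPC versus KPC IL6KO (SE 0.24, FDR = 0.000268). KPC IL6KO differed from no tumor by -0.21, with a 95% interval of -0.76 to 0.34.

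Chrnb1 (chromosome 11, 69784036 to 69795943, minus strand) encodes the beta subunit, which is shared by the fetal and adult receptor. It had 24.8, 20.6 and 24 CPM in no tumor mice, 57.2, 48.7, 95.1 and 30.6 CPM in KPC mice, and 24.3, 26.2, 27.9 and 25.1 CPM in KPC IL6KO mice. The lowest KPC library was above the highest of the other groups, although by less in KPC 4 than in the other KPC mice. The log2 FC was 1.33 versus no tumor (SE 0.29, FDR = 0.00165) and 1.16 versus KPC IL6KO (SE 0.26, FDR = 0.0019).

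Chrna1 (chromosome 2, 73563215 to 73580338, minus strand) encodes the alpha subunit, which binds acetylcholine. Its level was 17.4, 12.9 and 13.2 CPM without tumor, 21.7, 14, 22.7 and 12.6 CPM with KPC tumors, and 14.6, 14.4, 16.4 and 13 CPM with KPC IL6KO tumors. KPC 1 and KPC 3 were above all other mice, KPC 2 lay within the range of the other groups, and KPC 4 was the lowest of the 11 mice. The log2 FC of KPC over no tumor was 0.29 (95% interval -0.17 to 0.75, FDR = 0.243), so a rise of more than 0.75 on the log2 scale lies outside the interval.

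Chrnd (chromosome 1, 87190607 to 87200070, plus strand), the delta subunit gene, had 5.37, 4.64 and 2.97 CPM in no tumor mice, 2.62, 2.33, 4.21 and 3.86 CPM in KPC mice, and 3.33, 4.77, 4.33 and 3.05 CPM in KPC IL6KO mice. The 3 groups overlapped. The log2 FC of KPC over no tumor was -0.43 (95% interval -1.01 to 0.16, FDR = 0.175), and Chrnd lay lowest per kb of the 4 subunit genes in every group.

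Because subunits are counted in the same library, their ratio does not depend on how libraries are scaled. The log2 ratio of Chrne to Chrna1 counts was 0.44 ± 0.18 in no tumor mice (SD, n = 3), -1.52 ± 0.98 in KPC mice (n = 4) and 0.22 ± 0.23 in KPC IL6KO mice (n = 4). The ratio of Chrnb1 to Chrna1 was 0.68 ± 0.18, 1.64 ± 0.36 and 0.83 ± 0.09 in the same order. KPC libraries overlapped neither other group in either ratio. In 2-sided exact permutation tests each of these 4 differences from KPC gave p = 0.0286, the smallest that 4 against 3 mice or 4 against 4 can reach here, and 0.0644 after adjustment over 9 tests. For Chrnd to Chrna1 the KPC difference from no tumor was -0.67 (exact p = 0.143, adjusted 0.214) with overlapping groups.

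**Figure D2:**
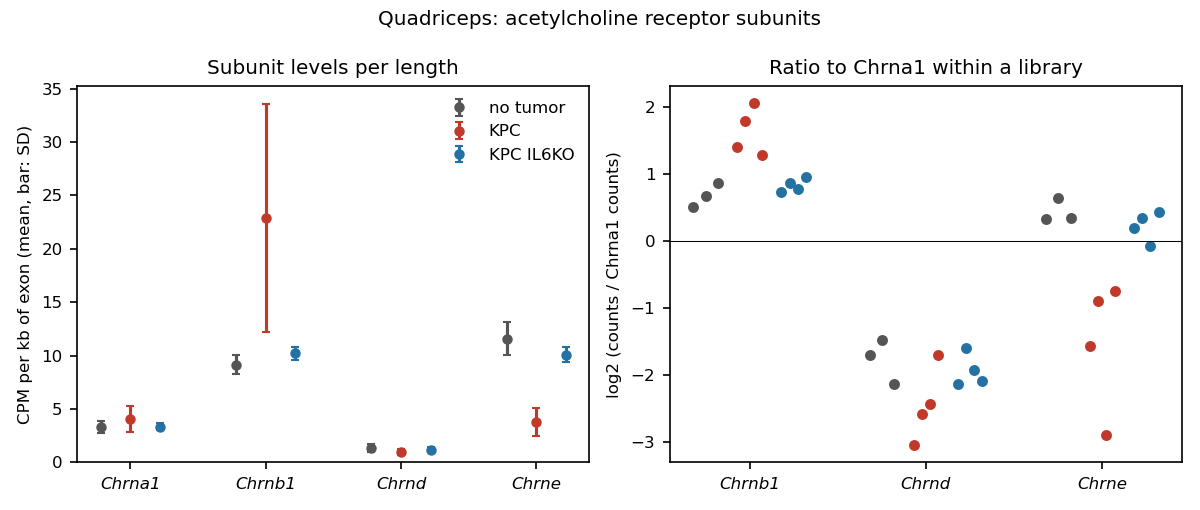
Left, CPM per kb of exon for the 4 receptor subunit genes in quadriceps, mean with SD bars, by group (3 no tumor, 4 KPC, 4 KPC IL6KO mice). Right, log2 ratio of counts to Chrna1 counts in each library. In KPC mice the Chrne ratio lay between -2.9 and -0.7 and below that of every other mouse.

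Musk (chromosome 4, 58285960 to 58374303, plus strand) encodes the kinase that anchors receptors under the nerve ending after agrin binds LRP4. Its level was 6.41, 6.70 and 11 CPM in no tumor mice, 42.6, 45.0, 118 and 53 CPM in KPC mice, and 8.92, 8.31, 14.3 and 17.0 CPM in KPC IL6KO mice. Every KPC mouse was above every other mouse, KPC 3 the most, and the KPC IL6KO mice overlapped with no tumor. The log2 FC was 3.03 in KPC versus no tumor (SE 0.43, FDR = 7.98e-05) and 2.41 in KPC versus KPC IL6KO (SE 0.37, FDR = 0.000128). In KPC IL6KO versus no tumor it was 0.61, with a 95% interval of -0.24 to 1.47 and FDR = 0.908.

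Runx1 (chromosome 16, 92601466 to 92826149, minus strand) encodes a transcription factor that is low in innervated muscle and is known to limit the wasting of denervated fibres. Its level was 1.65, 1.78 and 1.59 CPM in no tumor mice, 46.6, 8.90, 53.4 and 17.3 CPM in KPC mice, and 1.65, 1.70, 2.16 and 1.82 CPM in KPC IL6KO mice. The lowest KPC mouse was above every other mouse, and the KPC mice spread widely among themselves. With a log2 FC of 4.23 versus no tumor (SE 0.57, FDR = 5.8e-05) and 4.10 versus KPC IL6KO (SE 0.49, FDR = 2.4e-05), Runx1 had the largest change of the 9 genes. In KPC IL6KO muscle its log2 FC versus no tumor was 0.13 (95% interval -1.01 to 1.26). Runx1 shares 106 exon bases with the antisense gene Gm26626, and the strand setting of the counting is not given in the sources used here. Runx1 is also expressed by leukocytes, whose 7 analysed markers summed to 26.6 to 38.3 CPM in no tumor, 23.3 to 111 CPM in KPC and 28.3 to 44.2 CPM in KPC IL6KO muscle. KPC 1 and KPC 3, highest in Runx1, were also highest in this sum (55.8 and 111 CPM), in which Cd68 accounted for 26.5 and 79.5 CPM, while the pan-leukocyte gene Ptprc was at 1.62 and 0.90 CPM there against 1.80 to 2.82 CPM without tumor. The part of leukocytes in the Runx1 result was not tested.

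Gadd45a (chromosome 6, 67035096 to 67037457, minus strand) encodes a nuclear stress protein that is induced on denervation and can drive fibre atrophy. It had 21.7, 17.3 and 25.8 CPM without tumor, 144, 148, 485 and 113 CPM with KPC tumors, and 23.5, 19.1, 31.9 and 22.2 CPM with KPC IL6KO tumors. All 4 KPC mice were far above the others, and KPC 3 stood apart from the other KPC mice. The log2 FC was 3.37 versus no tumor (SE 0.49, FDR = 0.000103) and 3.20 versus KPC IL6KO (SE 0.43, FDR = 5.62e-05), and without KPC 3 these were 2.65 and 2.48, both still called. Gadd45a shares 337 exon bases with the antisense gene E230016M11Rik on the opposite strand.

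Hdac4 (chromosome 1, 91928779 to 92195699, minus strand) encodes the deacetylase that links loss of the nerve to myogenin. Its level was 23.6, 21.1 and 24.5 CPM in no tumor mice, 101, 36.6, 120 and 49.0 CPM in KPC mice, and 33.6, 28.5, 37.4 and 29.9 CPM in KPC IL6KO mice. KPC 1 and KPC 3 were again the highest, and KPC 2 lay below KPC IL6KO 3. The log2 FC was 1.73 in KPC versus no tumor (SE 0.35, FDR = 0.000966) and 1.24 in KPC versus KPC IL6KO (SE 0.31, FDR = 0.0037). Each KPC IL6KO mouse was above each no tumor mouse, but the log2 FC of 0.49 did not pass the test (95% interval -0.24 to 1.22, FDR = 0.932). Hdac4 shares 3536 of its 15813 exon bases with Gm26720 on the opposite strand, which was not among the genes of either tissue. Without a stated strand setting, reads on the shared bases cannot be told apart.

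Ncam1 (chromosome 9, 49502136 to 49798925, minus strand) encodes an adhesion molecule that spreads over denervated fibres and is also made by Schwann cells and satellite cells. Its level was 6.91, 6.80 and 6.51 CPM in no tumor mice, 9.30, 5.05, 6.14 and 6.94 CPM in KPC mice, and 7.66, 8.15, 6.70 and 5.61 CPM in KPC IL6KO mice. The no tumor values lay inside the range of the KPC mice. The log2 FC of KPC over no tumor was 0.02 (95% interval -0.42 to 0.47, FDR = 0.921). Ncam1 shares 417 exon bases with the antisense gene Gm11149. Schwann cell markers, 7 of 8 analysed, summed to 60.1 to 117 CPM in no tumor, 24.1 to 65.4 CPM in KPC and 39.4 to 52.1 CPM in KPC IL6KO muscle, and S100b and Sox10 were among the 3 that fell in KPC versus no tumor, although Sox10 lost its call without no tumor 2 (log2 FC -0.92, FDR = 0.0617). The part of Schwann cells in the Ncam1 value was not tested.

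**Figure D3:**
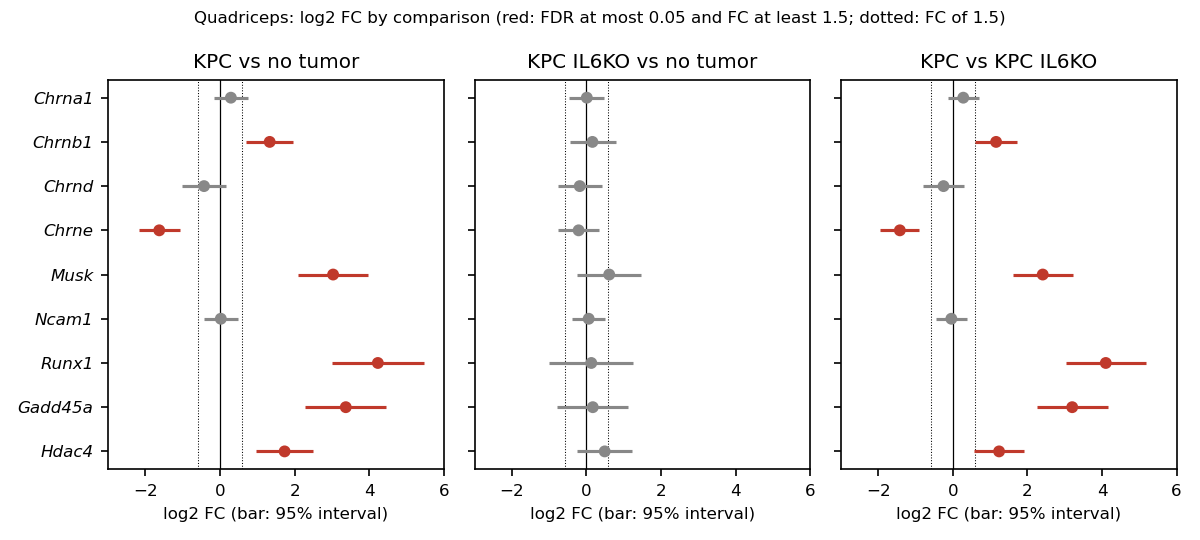
Log2 FC of the 9 genes in quadriceps for the 3 comparisons, with 95% intervals. Red marks genes called by edgeR, grey those not called, and dotted lines an FC of 1.5. The same 6 genes are red in both comparisons that contain KPC mice. None is red for KPC IL6KO versus no tumor, where 0% of all genes were called.

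In KPC IL6KO versus no tumor muscle, edgeR's quasi-likelihood test called 0 of 9 members and 0% of all genes in either direction. At an unadjusted p under 0.05 there were 887 of 12831 genes and 0 of 9 members. DESeq2 called 30 genes higher and 66 lower and edgeR's likelihood ratio test 25 higher and 70 lower, with 0 members in each. Hdac4 was 1 of 9 members whose CPM did not overlap between these groups, against 15.5% of all genes. In KPC versus no tumor 6 of 9 members did not overlap, against 65.3% of all genes. The intervals of Musk and Runx1 reached 1.47 and 1.26 on the log2 scale, so a moderate rise of these genes in KPC IL6KO muscle was not detectable with 3 and 4 mice.

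KPC and KPC IL6KO muscle, both tumor-bearing, differed in the same 6 members. Chrnb1, Musk, Runx1, Gadd45a and Hdac4 (5 of 9) were higher in KPC, against 26.4% of all genes, and Chrne (1 of 9) was lower, against 27.3%. Of these 6, Hdac4 was the member with overlapping groups, so that 5 of 9 members did not overlap, against 62% of all genes. This comparison uses the same 4 KPC libraries as the comparison with no tumor, so the results are not independent.

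In a list of 24 synapse organisers, 22 were analysed, of which 3 rose and 8 fell in KPC versus no tumor muscle (median log2 FC -0.45), against 26.7% and 29% of all genes. The largest falls were of Ache, the acetylcholinesterase of the synaptic cleft, from 64.5 ± 6.65 to 9.40 ± 4.88 CPM (log2 FC -2.78, FDR = 3.36e-05), and of Lrp4, the agrin receptor that activates MuSK, from 13.9 ± 0.683 to 2.75 ± 0.677 CPM (log2 FC -2.34, FDR = 1.56e-06). Lama4, Sntb2, Colq, Dok7, Utrn and Plec were the other genes that fell. Colq anchors acetylcholinesterase at the synapse and DOK7 is the cytoplasmic activator of MuSK, and their log2 FC were -1.06 and -0.96. Plec, a cytoskeletal linker, went from 997 ± 33.0 to 575 ± 184 CPM (log2 FC -0.79), and without KPC 3 its log2 FC of -0.58 was under the FC threshold. Syne1, which holds nuclei under the synapse and is expressed along the fibre as well, rose from 67.7 ± 4.00 to 545 ± 153 CPM (log2 FC 3.01, FDR = 3.16e-06). Lama5 (log2 FC 1.18) and Gabpa (log2 FC 0.66), a subunit of the N-box-binding factor, rose too. Rapsn, which clusters the receptor from inside, and Agrn had log2 FC of 0.04 and -0.06 and did not pass the test.

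Among 12 genes of the HDAC4 and myogenin axis, 4 rose and 4 fell in KPC versus no tumor muscle (median log2 FC -0.07), against the same 26.7% and 29% of all genes. Myog, the myogenin gene, had 4.33, 5.31 and 4.41 CPM without tumor, 9.35, 8.58, 38.7 and 5.91 CPM with KPC tumors, and 2.84, 3.65, 8.75 and 2.74 CPM with KPC IL6KO tumors. Its log2 FC of 1.74 passed the test (SE 0.64, FDR = 0.0305), with KPC 3 far above the other KPC mice and KPC 4 below KPC IL6KO 3. The Myog call was lost without KPC 3, where the log2 FC was 0.76 (FDR = 0.12), and without each no tumor mouse, where it was 1.70 to 1.84 (FDR = 0.0652 to 0.0814). Cdkn1a, a cell cycle inhibitor, rose from 19.0 ± 1.75 to 493 ± 245 CPM (log2 FC 4.70, FDR = 1.04e-05). Mef2a and Mef2d, fibre transcription factors, rose by 0.81 and 0.64 on the log2 scale, while Mef2c fell by 2.54, Myod1 by 2.93 and Map3k4 by 0.71. Mef2d without KPC 1 (0.48) and Map3k4 without KPC 3 (-0.57) were under the FC threshold. Hdac9, another class IIa deacetylase and the gene with the largest fall in this list, went from 7.27 ± 0.384 to 0.59 ± 0.303 CPM. Dach2, which HDAC4 represses in denervated muscle, had a log2 FC of -0.84 that did not pass the test (FDR = 0.116), and passed it at -1.26 without KPC 4 (FDR = 0.0206).

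Of 15 other genes known to rise on denervation, 10 rose and none fell in KPC versus no tumor muscle (median log2 FC 1.87), where 26.7% of all genes rose and 29% fell. Trim63 and Fbxo32, the muscle ubiquitin ligases of atrophy, had the largest rises, with log2 FC of 5.04 (FDR = 1.51e-06) and 5.02 (FDR = 3.64e-06). Cdkn1a, Eda2r, Gdf5, Tnfrsf12a, Fbxo30, Ankrd1, Myog and Sln also rose. Without KPC 3, Gdf5 went from a log2 FC of 3.38 to 2.25 and Ankrd1 from 1.87 to 1.20, both still called. The other 5 did not pass the test. Among them, Myh3 and Myh8, the embryonic and perinatal myosins, had log2 FC of -0.24 and -0.47, and Myh8 passed at -0.59 without no tumor 2 (FDR = 0.0352). Kcnn3, a potassium channel of denervated fibres, had -0.30 and Csrp3 had 0.17. Among 6 ion channels of the innervated fibre, Kcnj11 rose (log2 FC 1.38) and Clcn1, the muscle chloride channel, Kcna7 and Cacna1s fell, by 2.89, 1.51 and 0.88 on the log2 scale, while Ryr1 had a log2 FC of 0.31, so that 1 of 6 rose and 3 fell, against 26.7% and 29%. These 4 lists held 0 called genes in KPC IL6KO versus no tumor with edgeR's quasi-likelihood test, which called 0% of all genes there. In KPC versus KPC IL6KO the numbers higher and lower were 4 and 7 of 22, 3 and 5 of 12, 11 and 0 of 15, and 1 and 3 of 6, against 26.4% and 27.3% of all genes.

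**Figure D4:**
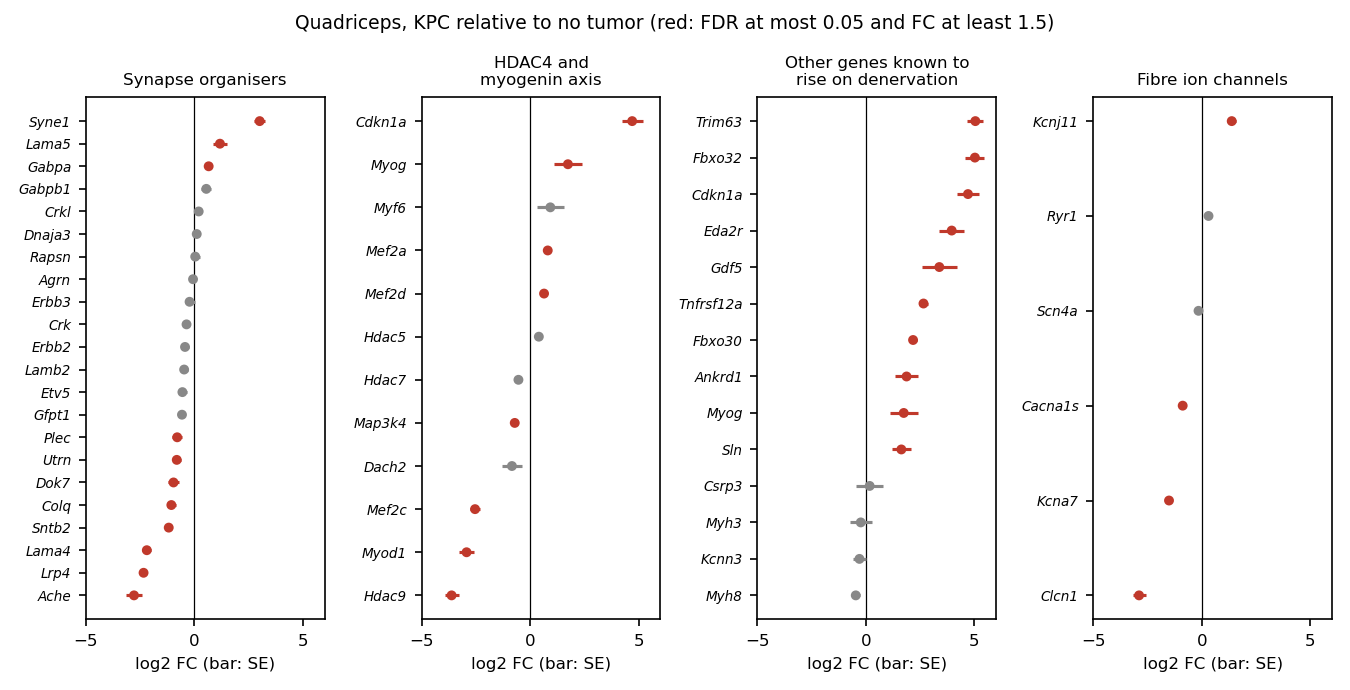
Log2 FC (bars, SE) of the genes reported here from 4 related lists in quadriceps, KPC relative to no tumor, with called genes in red. Most called synapse organisers lie left of 0, down to -2.78 for Ache, and all called genes of the third list lie right of it, up to 5.04 for Trim63. Cdkn1a and Myog are in 2 lists.

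The quadriceps libraries carried the defining genes of muscle fibres (Acta1, Ckm, Myh4 and 4 others), which summed to 148000 to 181000 CPM in no tumor, 116000 to 136000 CPM in KPC and 168000 to 183000 CPM in KPC IL6KO muscle. Of the satellite cell markers, Pax7 fell in KPC versus no tumor (log2 FC -2.14), as did Calcr and Vcam1, and Cdh15, which fibres also express, rose (1.03). The 5 markers summed to 30.5 to 33.8, 32.4 to 61.2 and 35.7 to 38.4 CPM in no tumor, KPC and KPC IL6KO. Of 7 leukocyte markers Cd68, S100a8 and S100a9 rose and Ptprc and Adgre1 fell. Without KPC 3, Cd68 went from a log2 FC of 3.22 to 2.04 and S100a8 from 6.27 to 4.87, both still called, and Ptprc went from -0.85 to -0.72 and lost its call (FDR = 0.07). The Ptprc call was also lost without no tumor 2, no tumor 3 or KPC 4 (-0.84, -0.71 and -0.70). Of 5 markers of fibroblasts and endothelium, Col1a1, Pdgfra and Dcn fell, while the endothelial genes Pecam1 and Cdh5 were not called. Pecam1 ranged over 53.8 to 69.3 CPM without tumor against 58.6 to 102 CPM with KPC tumors. For Cdh5 the ranges were 67 to 90.2 and 51.9 to 92.1 CPM, so both genes overlapped between these groups. The sum of all 5 was 654 to 677 CPM in no tumor, 296 to 363 CPM in KPC and 483 to 576 CPM in KPC IL6KO. Adipocyte markers summed to 293 to 1330, 121 to 659 and 137 to 308 CPM. The part of these cells in the members' values was not tested. Total counts ran from 19259763 to 74907810 in quadriceps, with no tumor 3 the shallowest, and from 26306377 to 56308545 in fat.

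Across the 11 quadriceps libraries the genes whose log2 CPM was most like that of Chrna1 were Fads6 (Pearson r = 0.937), Bcl2l15 (0.908) and Igf2r (0.905). Those most like Musk were Nol11 (0.988), Ddx23 (0.986) and 1700095B10Rik (0.986). These correlations are descriptions over 11 libraries of 1 tissue from 3 groups.

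Epididymal fat was sequenced separately from the quadriceps and from other mice. No member passed the test there: edgeR called 0 of 7 in each of the 3 comparisons and 0% of all genes. At an unadjusted p under 0.05, Chrnb1 and Gadd45a (2 of 7 members) were higher in KPC IL6KO than in no tumor fat. In that comparison 1584 of 16962 genes were under it in either direction. In the other comparisons 0 of 7 members were, against 2061 genes in KPC versus no tumor and 1062 in KPC versus KPC IL6KO. DESeq2 and edgeR's likelihood ratio test called 0 members too, while DESeq2 called 364 and 282 genes higher and 221 and 4 lower in KPC and KPC IL6KO versus no tumor, and the likelihood ratio test 268 and 209 higher and 145 and 0 lower. The biological coefficient of variation was 63.5% in fat and 22.7% in quadriceps, so only large differences were detectable in fat. In KPC versus no tumor 1 of 7 members did not overlap (Chrnb1), against 10.9% of all genes, in KPC IL6KO versus no tumor 1 of 7 (Chrnb1), against 2.01%, and in KPC versus KPC IL6KO 0 of 7, against 4.33%.

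The fat pads differed in their epididymal RNA. Gpx5, an epididymal secretory gene, was at 21300 to 55000 CPM in 7 libraries and at 4.69 to 85.8 CPM in the other 5, and 8 epididymal genes took 0.0861% to 7.65% of the counts. The 7 were the 4 KPC pads, no tumor 5, no tumor 7 and KPC IL6KO 6, with shares of 4.08% to 7.65%. Of the other 5, KPC IL6KO 5 had 0.0861% and the rest 1.21% to 2.36%. Low Gpx5 therefore did not mean that epididymal RNA was absent.

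Runx1 in fat had 116, 7.23, 63.5 and 7.32 CPM in no tumor mice 5 to 8, 45.0, 104, 59.6 and 73.6 CPM in KPC mice 5 to 8, and 66.6, 95.7, 11.9 and 36.1 CPM in KPC IL6KO mice 5 to 8. The 7 libraries rich in Gpx5 lay at 45.0 CPM or above, and of the other 5 only KPC IL6KO 5 did. The log2 FC of KPC over no tumor was 0.54 (95% interval -1.33 to 2.42), and -0.25 among the libraries rich in Gpx5 (4 KPC and 2 no tumor). Hdac4 in fat was between 8.41 and 13.8 CPM in all 12 libraries. The lowest 2 were no tumor 6 and 8, which also had the lowest Runx1, and its log2 FC of KPC over no tumor was 0.18 (95% interval -0.31 to 0.66).

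Chrnb1 in fat had 9.37, 9.31, 7.30 and 6.04 CPM in no tumor mice, 12.3, 9.45, 9.40 and 24.9 CPM in KPC mice, and 70.3, 9.98, 9.72 and 11.3 CPM in KPC IL6KO mice. KPC IL6KO 5 stood far above all other pads and had the lowest epididymal share, 0.0861%. The log2 FC of KPC IL6KO over no tumor was 1.66 (FDR = 0.488), and 0.37 both without KPC IL6KO 5 and with the epididymal share as a covariate. KPC IL6KO 5 was the extreme of that covariate, with 1.21% the next lowest share, so these fits cannot tell that library from the epididymal share. Gadd45a had 9.90, 11, 10.3 and 10.4 CPM in no tumor mice, 14.8, 11.2, 10.3 and 19.1 CPM in KPC mice, and 34.6, 11.7, 9.66 and 22.4 CPM in KPC IL6KO mice. Again KPC IL6KO 5 was the highest, and the log2 FC of KPC IL6KO over no tumor was 0.91 (FDR = 0.499), 0.49 without KPC IL6KO 5 and 0.36 with the epididymal share as a covariate.

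Chrne and Musk were low in fat. Chrne ranged from 0.0736 to 4.13 CPM, with no tumor 8 (261 counts) and KPC 7 (114 counts) the highest. Musk ranged up to 1.20 CPM, and was at 0 counts in no tumor 5 and KPC IL6KO 5, where 3 counts, the limit that a count of 0 allows, are 0.123 and 0.0736 CPM. Their log2 FC of KPC over no tumor were -0.67 and 1.57, with 95% intervals of -3.25 to 1.92 and -0.95 to 4.09. Fibre markers summed to 15.8 to 284 CPM in no tumor, 9.17 to 15.1 CPM in KPC and 94.4 to 2660 CPM in KPC IL6KO pads, highest in KPC IL6KO 8. Of the pads highest in Chrne, no tumor 8 had 284 CPM of them and KPC 7 had 11.9 CPM. The part of fibres in the Chrne values was not tested. Ncam1 had 36.9 to 87.0 CPM in no tumor (median 58.2), 28.4 to 72.7 in KPC (49.2) and 36.7 to 82.1 in KPC IL6KO pads (52.9), with overlapping groups.

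**Figure D5:**
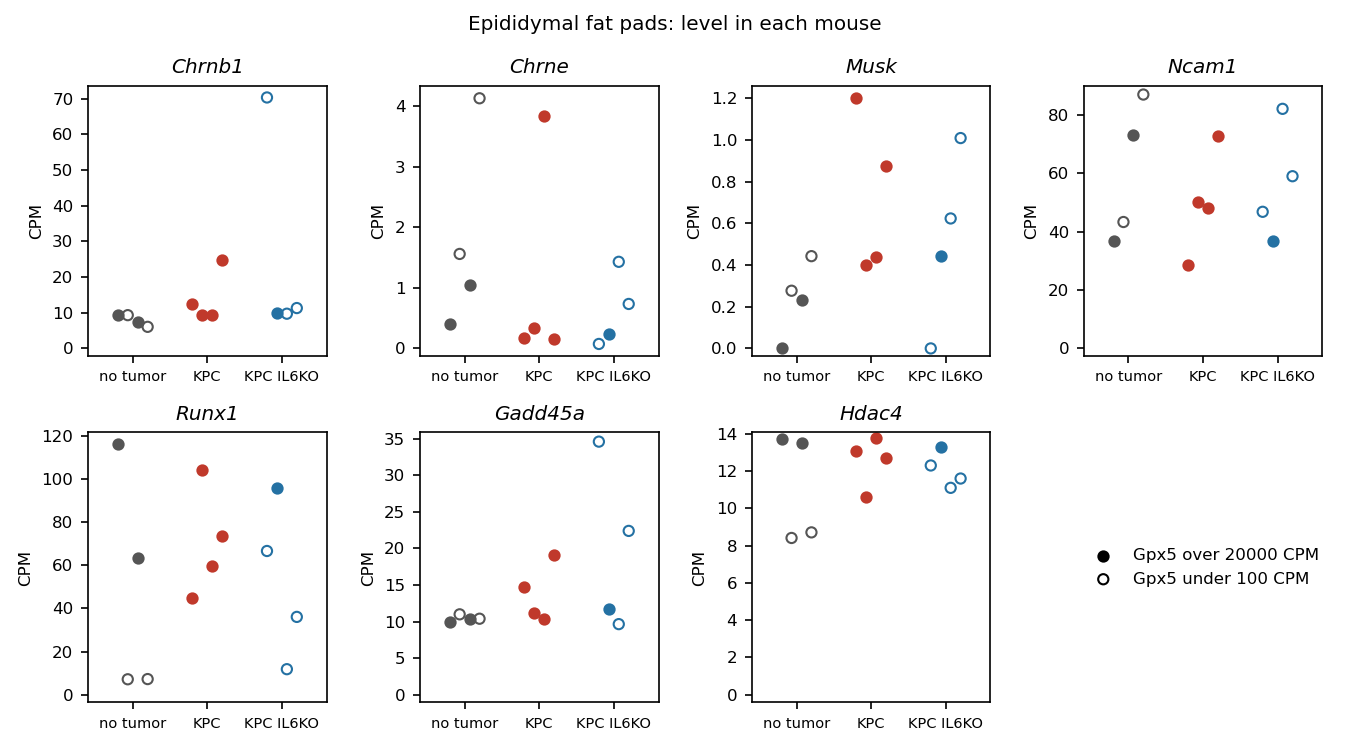
Level of the 7 genes in each epididymal fat library, in CPM on linear axes, by group. Filled points are the 7 libraries with Gpx5 over 20000 CPM and open points the 5 with under 100 CPM. Filled points lie at 45.0 CPM or above for Runx1, and KPC IL6KO 5 stands at 70.3 CPM for Chrnb1.

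The response to KPC tumors was compared between tissues in 1 edgeR fit of all 23 libraries over 12599 shared genes. Runx1, Gadd45a and Hdac4, 3 of 7 members, had a larger log2 FC in quadriceps than in fat, where 38.6% of all genes differed in either direction. The differences were 3.54 for Runx1 (SE 1.10, FDR = 0.016), 2.85 for Gadd45a (SE 0.60, FDR = 0.00116) and 1.43 for Hdac4 (SE 0.39, FDR = 0.00726). Musk differed by 1.47 (FDR = 0.23), Chrnb1 by 0.41 (FDR = 0.693), Ncam1 by 0.20 (FDR = 0.749) and Chrne by -1.05 (FDR = 0.514), so a difference between tissues was not shown for them. For the response to KPC IL6KO tumors 0 of 7 members and 0% of all genes differed.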

How the data were processed

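The authors deposited 1 table of raw counts per tissue. Per the labels and the study's methods, reads were mapped to mm10 with STAR and assigned to genes, with featureCounts 1.5.1 named in the submitters' processing notes. The methods call the libraries strand-specific but the strand setting of the counting is not given in the sources used here. A no tumor muscle library that the authors removed as an outlier was not used here. Groups and replicate numbers came from the sample titles, and 0 columns were left unmapped.

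Counts were normalized by TMM and tested with edgeR 4.0.16 (limma 3.58.1, R 4.3.3) by the quasi-likelihood method, 3 groups in 1 fit per tissue, with Benjamini-Hochberg adjustment over all genes. The difference between tissues was an interaction term. No gene fell to the filterByExpr filter. The fits were checked on simulated data. Libraries of a group differed beyond sampling noise (chi-square per degree of freedom of at least 28.9). Counts per kb used the union of GENCODE exons (GRCm38), and motifs were searched with Python 3.11.15. DESeq2 1.42.0 and the other alternatives are given at the end. Intervals from counts of 0 cover counting error only.

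The members and lists were chosen with earlier results of these data known. All members were named, and from each list the most highly expressed gene by mean CPM and the called genes, with the 2 largest rises and falls, and the 3 genes most correlated with Chrna1 and with Musk. List genes named beyond that were chosen after their values were seen. Ratios to Chrna1 (pseudocount 0.5), the fit over libraries rich in Gpx5 and the fits of list genes with each library left out were added after seeing the data. The ratio of gamma to epsilon subunit was planned and could not be fitted without Chrng. Some items of the lists and of the donor genotype are not reported here.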

Additional observations from a re-analysis of the deposited data

Results flagged for a closer look

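In quadriceps, KPC 3 stood apart from the other 3 KPC mice for 3 members. Its Chrne level was 3.06 CPM against 7.38 to 7.57 CPM, its Musk level 118 CPM against 42.6 to 53 CPM, and its Gadd45a level 485 CPM against 113 to 148 CPM. Each gap was beyond Dixon's 95% critical value for 4 mice. In fat, Chrnb1 in KPC IL6KO 5 was 70.3 CPM against 9.72 to 11.3 CPM in the other 3, and Chrne in KPC 7 was 3.84 CPM against 0.163 to 0.344 CPM. There were 18 such groups tested in quadriceps and 21 in fat, of which chance would set apart about 1 in 20.

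The log2 FC of KPC over no tumor was larger in quadriceps than in fat by 3.54 for Runx1, 2.85 for Gadd45a and 1.43 for Hdac4, by the interaction term of the joint edgeR fit.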

How the results depend on the processing

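The numbers of members called kept their direction under every alternative run. These were DESeq2, edgeR's likelihood ratio test, its newer quasi-likelihood fit, RLE scaling, a fit of the 2 compared groups alone, no filter, a filter of 10 counts in each library, a replicate block, each library left out in turn and, in fat, the epididymis share as a covariate or only the libraries over 20000 CPM of Gpx5. No member gained or lost its call in any of them. The replicate block left the members called in quadriceps at 5 higher and 1 lower. Mice with the same number did not deviate together (correlations of -0.15 to 0.26 in quadriceps and -0.54 to 0.65 in fat, with 4 of 11 and 3 of 12 libraries most correlated with their own number), so numbers were not taken as pairs. The number of members that differed between tissues was 3 in all alternatives of that fit.

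Values of members that were not called turned direction in some alternatives. With a library left out, quadriceps Chrna1 in KPC IL6KO versus no tumor ran from -0.07 to 0.15, and Ncam1 from -0.16 to 0.15 (KPC versus no tumor), -0.22 to 0.09 (KPC versus KPC IL6KO) and -0.02 to 0.15 (KPC IL6KO versus no tumor). In fat, Chrnb1 in KPC versus KPC IL6KO ran from -1.29 to 0.44, the latter without KPC IL6KO 5, and Chrne from -1.43, without KPC 7, to 1.77. Chrne in KPC versus no tumor ran from -2.96 to 0.17, and Ncam1 in KPC versus KPC IL6KO from -0.41 to 0.09. In KPC IL6KO versus no tumor, Runx1 ran from -0.34 to 1.01 and Ncam1 from -0.35 to 0.13. With the epididymis share as covariate, KPC versus KPC IL6KO was 0.54 for Chrnb1, -0.04 for Runx1, 0.13 for Gadd45a and -0.06 for Hdac4. Over libraries rich in Gpx5, KPC versus no tumor was 0.75 for Chrne, -0.25 for Runx1 and -0.03 for Hdac4. The cause was not tested. Few mice and the spread between fat pads limit what could be detected.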

Other observations

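Within the KPC group the members did not order the 4 mice alike. Chrna1, Runx1 and Hdac4 were highest in KPC 1 and KPC 3, at 21.7 and 22.7 CPM, 46.6 and 53.4 CPM, and 101 and 120 CPM, and lower in KPC 2 and KPC 4. Lama5, a laminin of the basal lamina, was at 179 and 187 CPM in KPC 1 and KPC 3 and at 72.9 and 63.5 CPM in KPC 2 and KPC 4. Cdkn1a was at 676 and 666 CPM against 151 and 481 CPM, and Cd68, a lysosomal gene of macrophages, at 26.5 and 79.5 CPM against 4.16 and 8.58 CPM. Of the other leukocyte markers, Itgam was also highest in KPC 1 and KPC 3, at 4.25 and 3.62 CPM against 2.91 and 1.79 CPM. Ptprc, Adgre1, Csf1r, S100a8 and S100a9 did not have this order, with Adgre1 at 2.16 and 0.785 CPM against 1.04 and 0.489 CPM. Musk, Gadd45a and Myog were highest in KPC 3 and lower in KPC 1, with 42.6, 144 and 9.35 CPM in the latter. These genes were chosen after their values were seen and the order was not tested.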
